A study of Mus musculus with 12 samples.

Results

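Glycolysis, pyruvate metabolism and the citric acid cycle were followed through 46 genes in the epithelium of the mouse small intestine after experimental stroke. The genes were chosen by function: enzymes, transporters and regulators whose names were looked up in a table of 15855 genes. Of the 46 genes, 45 had values and all 45 passed the filter on low counts, among 14462 genes tested. Ldhb, which encodes the heart-type subunit of lactate dehydrogenase, was not analysed here.

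RNA was sequenced from epithelial cells sorted for EpCAM, a surface protein of epithelia, from the whole small intestine of C57BL6/J mice. All animals were male wild-type mice, 8 to 12 weeks old per the study's methods, and cells were collected 24 h after surgery. In 5 mice the middle cerebral artery had been closed permanently (pMCAO), and the 7 sham-operated mice served as controls, 1 library per mouse as the labels number them. The sort took live EpCAM+ cells without separating villus from crypt or one stretch of intestine from another, so every library is a mixture of epithelial cell types. In such a mixture fewer cells of a type and less RNA per cell cannot be told apart.

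Total counts per library ranged from 7418730 to 31925579, and mitochondrial ribosomal RNA took up 14.6% to 54.5% of them. All 7 epithelial marker genes were present (summed level 3569 to 7560 CPM, read counts scaled by library size), and 8 of the 9 stromal and vascular markers were not listed, the other one staying between 0.0768 and 5.24 CPM. All 8 immune cell markers were also present. They summed to 52.8 to 612 CPM in sham and 71.3 to 404 CPM in pMCAO libraries, so the libraries were not free of immune transcripts. The libraries carry numbers in 4 runs: 58 to 61 (3 sham, 1 pMCAO), 62 to 65 (2 sham, 2 pMCAO), 66 to 68 (1 sham, 2 pMCAO) and 72 (1 sham). The division into runs comes from earlier work on these data and not from the labels, and whether a run is a day of tissue collection is not known. The 4 libraries of the first run stood apart from the other 8, with 13386 to 14712 genes detected against 15343 to 15766, with 34.8% to 54.5% mitochondrial ribosomal RNA against 14.6% to 35.2%, and with a summed level of 6 goblet cell markers of 3216 to 5779 CPM against 15870 to 39620 CPM. Results are therefore given for the group alone, with the run as a covariate, and without the first run.

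Glycolysis breaks glucose down to pyruvate in the cytosol. Pyruvate is either reduced to lactate or carried into mitochondria, where the pyruvate dehydrogenase complex makes acetyl-CoA and the citric acid cycle oxidises it. Enterocytes of the small intestine are known to draw much of their energy from glutamine, which enters the citric acid cycle directly, while sugars from food pass through them to the blood.

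The highest levels per length, by the mean over all 12 libraries, belonged to lactate dehydrogenase, both malate dehydrogenases, citrate synthase and 2-oxoglutarate dehydrogenase. Levels are given here as CPM per kilobase of annotated exon, as a rough way to compare genes. This length takes in every annotated exon of a gene and exceeds its longest coding transcript by unequal amounts. It was 3562 against 1456 bases for Mdh2 and 2567 against 2122 bases for Mdh1. The order, also among the first genes, therefore depends on the length used. Ldha (lactate dehydrogenase A) stood first at 84.9 ± 18.8 in sham-operated mice (SD, n = 7). In the order over all 12 libraries it was followed by Mdh1 (cytosolic malate dehydrogenase, which in sham libraries alone came after the other 3), Cs (citrate synthase), Mdh2 (mitochondrial malate dehydrogenase) and Ogdh (a subunit of the 2-oxoglutarate dehydrogenase complex). Pfkm, the muscle-type phosphofructokinase, was last at 0.275 ± 0.278 in sham-operated mice. In none of the 44 neighbouring pairs of the order did the ranges over the 12 libraries stay apart, so only genes far apart in the order can be ranked. Gapdh, commonly used as a reference gene, stood 28th of the 45 genes, and this place is uncertain because 41 other annotated genes, 38 of them pseudogenes, hold stretches nearly identical to it.

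**Figure D1:**
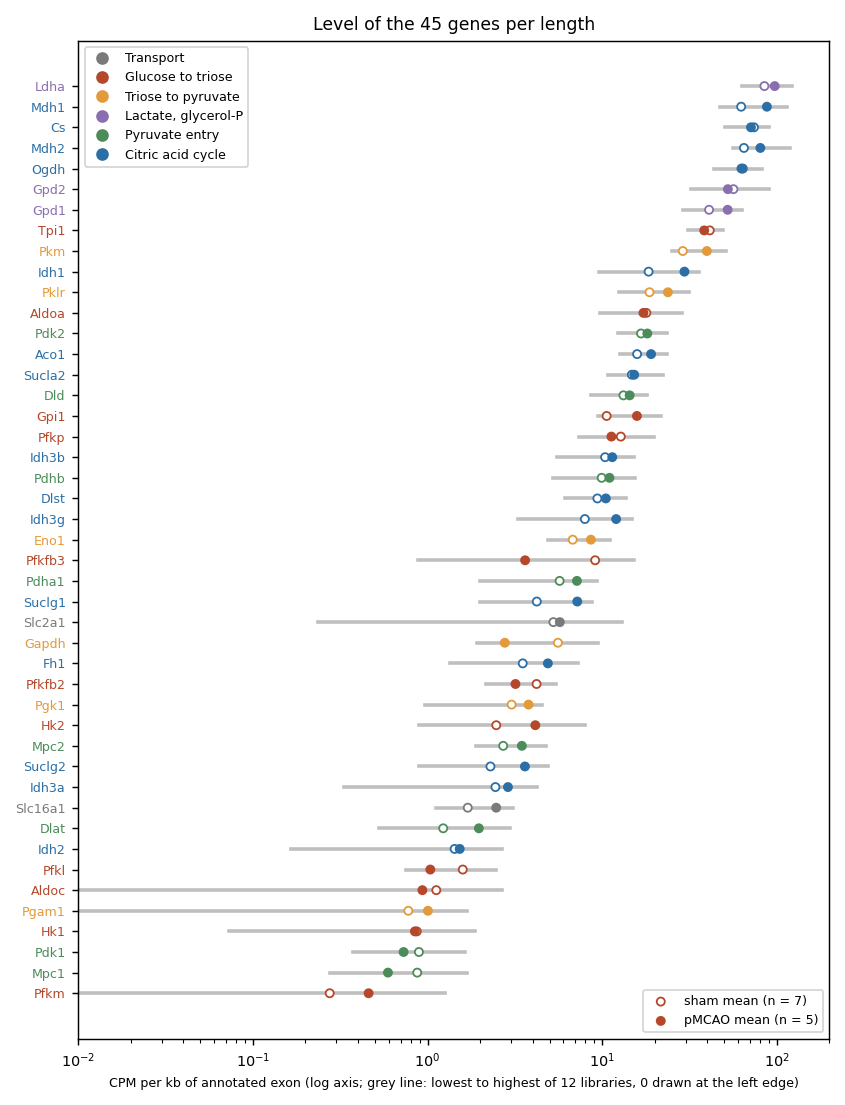
Level of the 45 genes in CPM per kilobase of annotated exon on a log axis; open circles are sham means (n = 7), filled circles pMCAO means (n = 5), and grey lines run from the lowest to the highest of the 12 libraries. By the mean over all 12 libraries, Ldha, Mdh1, Cs, Mdh2 and Ogdh lead the order, Pfkm stands last, and the ranges of neighbouring genes overlap throughout.

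The comparison of pMCAO with sham-operated mice asked whether the expression of these enzymes changes in the gut epithelium after stroke. No gene of the 45 passed the call (limma-voom, adjusted p up to 0.05 with at least 1 on the log2 scale in either direction), as was so for 0% of all 14462 genes tested. The smallest adjusted p among the 45 was 0.428, for Pfkfb3. At an unadjusted p under 0.05, 8 genes were higher in pMCAO mice (17.8% of the 45, against 4.66% of all genes tested) and 2 were lower (4.44%, against 3.77%). The median log2 fold change was 0.19 over the 45 genes and 0.06 over all genes tested. Over the 45 genes it ran from 0.11 without pMCAO replicate 5 to 0.31 without sham replicate 6. A fold change above 0 was found in 32 of the 45 (71.1%), against 55.2% of all genes. In no gene of the 45 were all libraries of one group above all of the other, which occurred in 0.505% of all genes. By edgeR's quasi-likelihood test 9 of the 45 had an unadjusted p under 0.05 (6.43% of all genes did) and by DESeq2 10 (7.97% of all genes did). Neither tool called any of the 45, against 0% of all genes in edgeR and 0.484% in DESeq2. The count of higher genes depended on single libraries, and the share of all genes moved as well. It was 2 without pMCAO replicate 5 (3.57% of all genes were higher). Without sham replicate 1 (3.35%) or pMCAO replicate 4 (3.67%) it was 4, and without sham replicate 2 (3.51%) or 6 (5.38%) it was 5. Only Pfkfb3 was lower without sham replicate 1 (2.77% of all genes were) or pMCAO replicates 3 (3.42%) or 4 (2.58%).

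With the library run as a covariate, again none of the 45 was called, while 0.325% of all genes were. The smallest adjusted p was 0.145 (limma-voom), again for Pfkfb3. By an unadjusted p under 0.05, 9 of the 45 were higher (6.58% of all genes were) and 5 were lower (6.17% of all genes were). The median log2 fold change with the run was 0.12 over the 45 genes and 0.01 over all genes, and 30 of the 45 (66.7%) were above 0, against 51.3% of all genes. The fold changes of 41 of the 45 genes pointed the same way in both fits. Without the 4 libraries of the first run, no gene of the 45 was higher at an unadjusted p under 0.05 (3.99% of all genes were), and 1, Aldoc, was lower (3.59% of all genes were). In the first run a single pMCAO library is set against 3 sham libraries. All 15 genes described with full values kept their direction without that run, each at a smaller size. Most of them were chosen by their p over all libraries, so smaller sizes and larger p in fewer libraries can follow from that choice alone. Over the 45 genes the median log2 fold change was 0.155 without the first run, against 0.185 with all libraries. How far the differences of single genes rest on the first run was not tested.

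**Figure D2:**
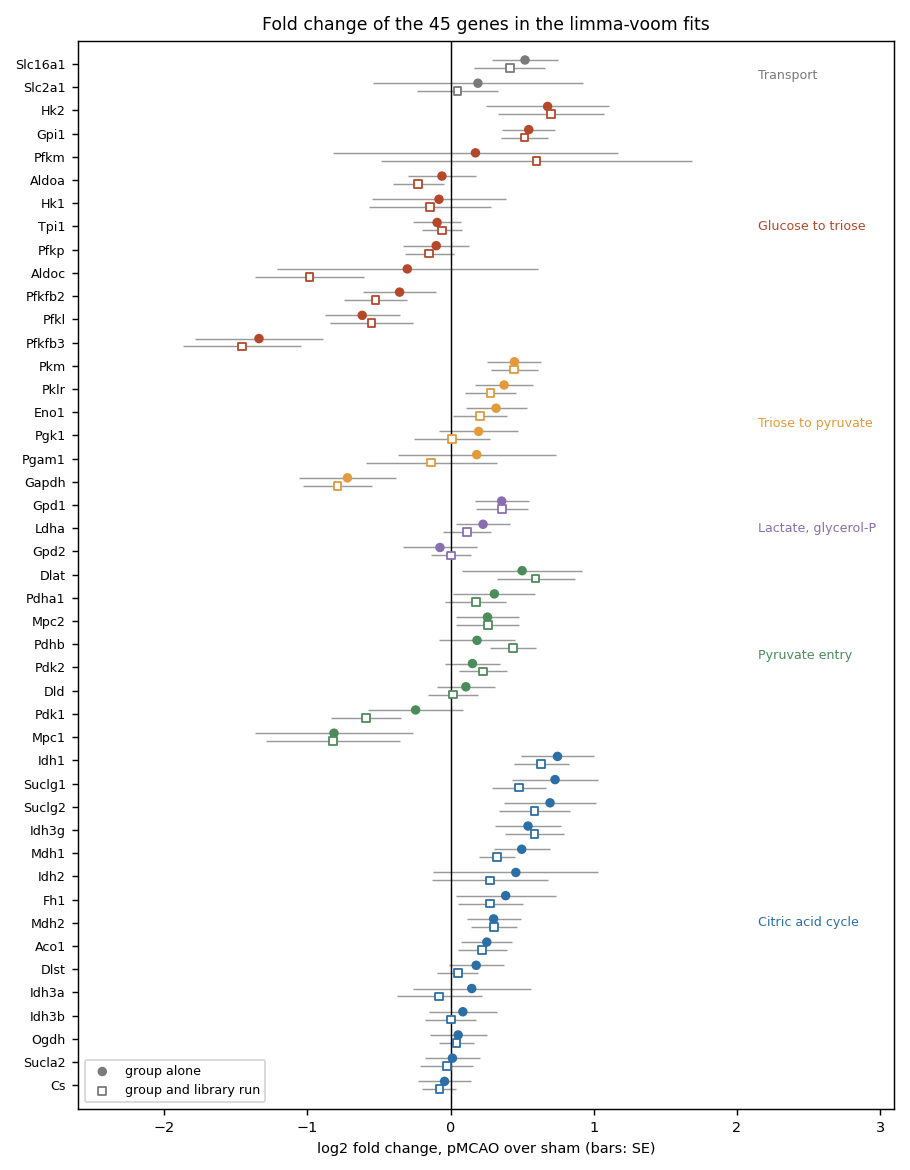
Log2 fold change of pMCAO over sham for the 45 genes, grouped by role, with bars of 1 SE; filled circles are the limma-voom fit on the group alone and open squares the fit with the library run. Pfkfb3 lies farthest below 0 (-1.34), 5 genes of the citric acid cycle lie between 0.50 and 0.75, and no gene was called in either fit.

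The steps from glucose to triose phosphate held the lowest fold change of all, that of Pfkfb3. Of 11 genes, 3 were above 0 and 8 below, with a median log2 fold change of -0.09 (-0.15 with the run). At an unadjusted p under 0.05, Pfkfb3 and Pfkl were lower and Gpi1 was higher. With the run Pfkfb3, Pfkfb2 and Aldoc were lower and Gpi1 higher, while Pfkl had an unadjusted p of 0.0755 (limma-voom). Aldoc stood at -0.98 ± 0.38 in that fit (limma-voom, unadjusted p = 0.0196, adjusted p = 0.285). The other 8 were Hk1 and Hk2 (hexokinases, which trap glucose in the cell), Pfkm and Pfkp (phosphofructokinase subunits), Pfkfb2, the aldolases Aldoa and Aldoc, and Tpi1 (triosephosphate isomerase).

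Pfkfb3 encodes a bifunctional enzyme that makes and removes fructose 2,6-bisphosphate, the strongest activator of phosphofructokinase, and its form is known for favouring synthesis. In sham-operated mice its level was lowest at 26.2, median 62.8 and highest at 115 CPM. The 5 pMCAO libraries held 6.67, 20.4, 55.8, 32.6 and 21.2 CPM, in the order of replicates 1 to 5. All 5 lay below the sham median, and replicates 3 and 4 lay within the sham range. This was a log2 fold change of -1.34 ± 0.45 (SE; limma-voom, unadjusted p = 0.00883, adjusted p = 0.428), or -1.46 ± 0.41 with the run (adjusted p = 0.145). The lowest value belonged to the pMCAO library of the first run. Within runs the log2 difference was -3.72, -0.47 and -1.61, and without the first run it was -0.65 (limma-voom, adjusted p = 0.729). The gene lies on chromosome 2 (11471433 to 11554077, minus strand, GRCm38).

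The sequences upstream of the 3 genes with the smallest unadjusted p, Pfkfb3, Gpi1 and Idh1, are shown because they differ in the core letters of the hypoxia response element, ACGTG, which are present at both Pfkfb3 starts and at none of the others. Each window covers 250 bases before to 50 after an annotated start (RefSeq, GRCm38.p6), written 5′ to 3′ on the strand of the gene, with ACGTG on either strand in capitals.
Pfkfb3, chr2:11553880-11554179, minus strand: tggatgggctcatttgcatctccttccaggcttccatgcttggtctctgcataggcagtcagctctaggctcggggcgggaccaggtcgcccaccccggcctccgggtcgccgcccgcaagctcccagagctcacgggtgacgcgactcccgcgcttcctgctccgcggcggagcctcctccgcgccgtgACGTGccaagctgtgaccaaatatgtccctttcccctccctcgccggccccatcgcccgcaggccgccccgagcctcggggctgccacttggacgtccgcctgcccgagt
Pfkfb3, chr2:11502041-11502340, minus strand: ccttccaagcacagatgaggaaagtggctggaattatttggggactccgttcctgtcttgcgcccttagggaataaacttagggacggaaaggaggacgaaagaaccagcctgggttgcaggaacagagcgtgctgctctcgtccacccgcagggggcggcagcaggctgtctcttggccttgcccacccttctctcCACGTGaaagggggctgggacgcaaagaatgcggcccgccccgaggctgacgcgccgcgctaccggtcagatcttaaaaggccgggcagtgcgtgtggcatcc
Gpi1, chr7:34230287-34230586, minus strand: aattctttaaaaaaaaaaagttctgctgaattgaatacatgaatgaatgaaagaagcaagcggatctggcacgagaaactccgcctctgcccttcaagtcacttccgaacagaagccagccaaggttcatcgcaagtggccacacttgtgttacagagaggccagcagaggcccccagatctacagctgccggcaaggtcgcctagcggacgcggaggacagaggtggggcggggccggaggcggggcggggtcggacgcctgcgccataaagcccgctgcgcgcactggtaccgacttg
Idh1, chr1:65186430-65186729, minus strand: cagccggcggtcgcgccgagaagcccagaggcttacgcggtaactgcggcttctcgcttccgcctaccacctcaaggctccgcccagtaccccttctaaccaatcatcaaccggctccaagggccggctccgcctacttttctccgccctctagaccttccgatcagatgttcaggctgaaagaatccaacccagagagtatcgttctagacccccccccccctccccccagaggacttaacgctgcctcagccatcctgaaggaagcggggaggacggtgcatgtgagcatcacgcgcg
Idh1, chr1:65179093-65179392, minus strand: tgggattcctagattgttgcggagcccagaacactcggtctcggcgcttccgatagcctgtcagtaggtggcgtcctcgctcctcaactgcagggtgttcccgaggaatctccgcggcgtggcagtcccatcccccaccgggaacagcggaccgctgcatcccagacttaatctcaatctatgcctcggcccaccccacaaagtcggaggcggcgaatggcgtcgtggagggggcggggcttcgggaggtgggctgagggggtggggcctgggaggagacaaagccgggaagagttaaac

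In the second Pfkfb3 window the letters form the palindrome CACGTG, which holds ACGTG on both strands. RefSeq windows were found for 43 of the 45 genes, 68 windows in all. ACGTG was present in 42.6% of these 68 windows, against 19.6% of all 32851 windows, and CACGTG, a motif that contains it, in 13.2% against 7.15%. A match is a string of letters and says nothing of binding in these cells. Genes with such a window included genes with fold changes on both sides of 0: Pfkfb3, Gapdh and Pfkfb2 below, Mdh1, Pkm, Idh3g and Slc16a1 above.

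Pfkl, the liver-type subunit of phosphofructokinase, the committed step of glycolysis, had a low level. Sham libraries held 7.78 (lowest), 9.60 (median) and 16.5 CPM (highest). The pMCAO libraries held 6.24, 10.4, 5.58, 5.04 and 7.32 CPM. Only pMCAO replicate 2 reached the sham range, in which it lay above the median. Fitted over all genes, the log2 fold change was -0.62 ± 0.26 (limma-voom, unadjusted p = 0.0309, adjusted p = 0.552), and -0.55 ± 0.29 with the run (adjusted p = 0.447). Pfkl lies on chromosome 10 (77986947 to 78010083, minus strand). Of the other subunits, Pfkp was the most abundant per length and had a log2 fold change of -0.10 ± 0.23.

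Gpi1, glucose-6-phosphate isomerase, which turns glucose 6-phosphate into fructose 6-phosphate, ran the other way. Its sham values were tightly grouped, at 61 (lowest), 65.9 (median) and 79.1 CPM (highest). The pMCAO libraries held 139.7, 74.0, 75.8, 101.9 and 118 CPM. Replicates 1, 4 and 5 lay above every sham library and replicates 2 and 3 within the sham range. On the log2 scale the fold change was 0.55 ± 0.19 (limma-voom, unadjusted p = 0.00963, adjusted p = 0.443), and 0.52 ± 0.17 with the run (adjusted p = 0.194). The largest difference within a run was in the first, 1.14 on the log2 scale, against 0.11 and 0.47. The gene (chromosome 7, 34201330 to 34230336, minus strand) shares 36.3% of its longest coding transcript with a nearly identical pseudogene. An exon also overlaps Gm26762 on the opposite strand, and whether the counting told reads of both genes apart is not known.

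Pfkfb2, a second form of the bifunctional enzyme, was described because it pairs with Pfkfb3. Sham libraries held 15.7 (lowest), 33.5 (median) and 39.6 CPM (highest), and pMCAO libraries held 23.8, 17.1, 30.2, 24.9 and 19.7 CPM. All 5 pMCAO values lay inside the sham range. Between the groups the log2 fold change was -0.36 ± 0.26 (limma-voom, unadjusted p = 0.181, adjusted p = 0.703), and -0.52 ± 0.22 with the run (unadjusted p = 0.0319, adjusted p = 0.334). It lies on chromosome 1 (130689182 to 130729253, minus strand) and overlaps an exon of Yod1 on the opposite strand.

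From triose phosphate to pyruvate, 5 of 6 genes were above 0 and 1, Gapdh, was below. The median log2 fold change was 0.26, or 0.11 with the run. By an unadjusted p under 0.05, Pkm was higher, and with the run Gapdh was also lower. Pgk1 (phosphoglycerate kinase), Pgam1 (phosphoglycerate mutase) and Eno1 (enolase) lay between 0.18 and 0.32. Nearly identical copies share 68.8%, 43.1% and 85.6% of their longest coding transcripts, so their counts are uncertain too.

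Gapdh, glyceraldehyde-3-phosphate dehydrogenase, oxidises triose phosphate and makes NADH. Its sham values spread from 7.94 (lowest) through 17.9 (median) to 39.2 CPM (highest). The pMCAO libraries held 14.4, 10.4, 13.3, 10 and 9.17 CPM. The pMCAO values were close together and all below the sham median, while sham replicate 7, the only library of its run, lay below them all. Its log2 fold change was -0.72 ± 0.34 (limma-voom, unadjusted p = 0.0507, adjusted p = 0.595). With the run it was -0.79 ± 0.24 (unadjusted p = 0.00483, adjusted p = 0.177), and within runs it was -1.07, -0.76 and -0.67. Without the first run it was -0.39 (limma-voom, adjusted p = 0.793). Gapdh (chromosome 6, 125161715 to 125166467, minus strand) shares 88% of its longest coding transcript with other annotated genes and overlaps an exon of Iffo1 on the opposite strand, so how many reads the counting assigned to it is uncertain.

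Pyruvate kinase makes pyruvate and ATP at the last step, from Pkm in many cell types and from Pklr in liver and red cells, among others. Pkm held 125 (lowest), 135 (median) and 185 CPM (highest) in sham-operated mice. The pMCAO libraries held 229, 131, 164, 215 and 256 CPM. Replicates 1, 4 and 5 lay above all sham libraries. This was a log2 fold change of 0.45 ± 0.19 (limma-voom, unadjusted p = 0.0309, adjusted p = 0.552), and 0.44 ± 0.16 with the run (adjusted p = 0.265). Of its longest coding transcript (gene at chromosome 9, 59656368 to 59679375, plus strand) 65.5% is shared with a nearly identical pseudogene.

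Pklr held 40.5 (lowest), 57.4 (median) and 87.7 CPM (highest) in sham libraries. In pMCAO mice it held 101, 75.8, 64.7, 63.4 and 79.5 CPM. Only replicate 1 lay above the sham range. Fitted over all genes, the log2 fold change was 0.37 ± 0.20 (limma-voom, unadjusted p = 0.0824, adjusted p = 0.628). Pklr (chromosome 3, 89136142 to 89146784, plus strand) overlaps an exon of Hcn3 on the opposite strand.

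**Figure D3:**
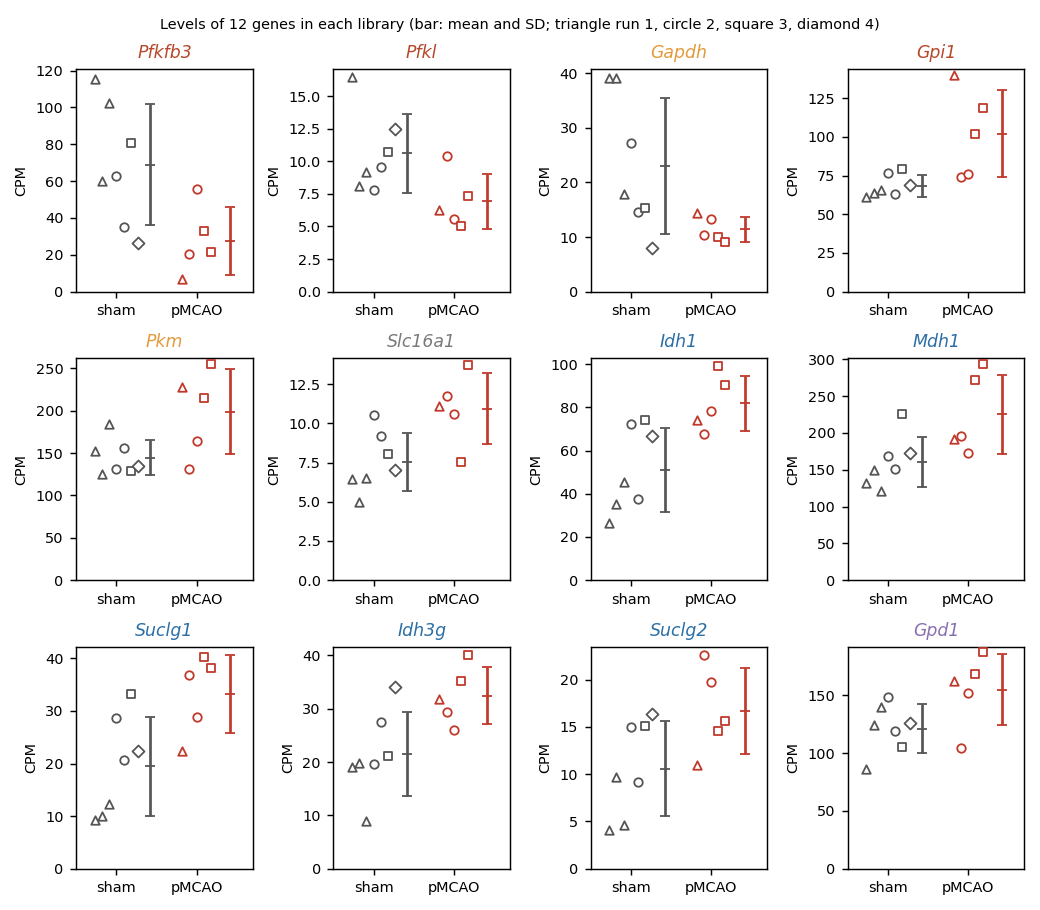
CPM of 12 genes in each library, 7 sham (grey) and 5 pMCAO (red), with the mean and SD beside the points and the marker shape giving the library run. Pfkfb3, Pfkl and Gapdh have lower pMCAO means, the other 9 higher ones, and the ranges of the groups overlap in every panel.

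The carriers at the cell membrane were both above 0. Slc16a1, which carries lactate, pyruvate and ketone bodies with a proton, held 4.98 (lowest), 6.99 (median) and 10.5 CPM (highest) in sham-operated mice. Its pMCAO libraries held 11.1, 11.7, 10.6, 7.52 and 13.7 CPM. All but replicate 4 lay above every sham library. On the log2 scale the fold change was 0.52 ± 0.23 (limma-voom, unadjusted p = 0.0390, adjusted p = 0.575), and 0.42 ± 0.25 with the run (unadjusted p = 0.114). The gene lies on chromosome 3 (104638668 to 104658462, plus strand). Slc2a1, a glucose carrier found in many tissues, had a log2 fold change of 0.19 ± 0.73 and differed far more between runs than between groups, with 0.829 to 8.93 CPM in the first run and 14.9 to 45.2 CPM in the other libraries.

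Lactate and glycerol phosphate enzymes showed no gene at an unadjusted p under 0.05 in either fit (limma-voom). Ldha, which turns pyruvate into lactate, had a log2 fold change of 0.23 ± 0.19. Gpd1, cytosolic glycerol-3-phosphate dehydrogenase, which links glycolysis to lipid synthesis, came closest. It held 86.3 (lowest), 124 (median) and 149 CPM (highest) in sham libraries and 162, 104, 152, 168 and 187 CPM in pMCAO libraries. All pMCAO libraries but replicate 2 lay above the highest sham value. Between the groups the log2 fold change was 0.36 ± 0.19 (limma-voom, unadjusted p = 0.0755, adjusted p = 0.616). Gpd1 (chromosome 15, 99717515 to 99725005, plus strand) overlaps an exon of Gm16537 on the opposite strand.

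The 8 genes that bring pyruvate into the citric acid cycle had a median log2 fold change of 0.17 (0.20 with the run). They were the mitochondrial pyruvate carrier (Mpc1, Mpc2), the pyruvate dehydrogenase complex (Pdha1, Pdhb, Dlat, Dld) and the kinases that switch the complex off (Pdk1, Pdk2). None had an unadjusted p under 0.05 for the group alone (limma-voom), and the values lay between -0.81 for Mpc1 and 0.50 for Dlat. A nearly identical pseudogene shares 27.2% of the longest coding transcript of Mpc1. With the run, Dlat (0.59 ± 0.27) and Pdhb (0.44 ± 0.16) were higher and Pdk1 (-0.59 ± 0.24) was lower at an unadjusted p under 0.05. Their adjusted p in that fit (limma-voom) was 0.373, 0.263 and 0.319. Of all genes 6.58% were higher and 6.17% lower in it. With the run in the other tools, Dlat had an unadjusted p of 0.283 (edgeR) and 0.239 (DESeq2). Pdk1 had one of 0.0813 (edgeR) and 0.0421 (DESeq2), and Pdhb stayed under 0.05 in both.

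The citric acid cycle was the group with most genes above 0. Of 15 genes 14 were above 0 and only Cs was below, with a median log2 fold change of 0.30. With the run 12 of 15 were above 0 (median 0.28), and without the first run 13 of 15 (median 0.31). At an unadjusted p under 0.05, 5 were higher (Idh1, Mdh1, Suclg1, Idh3g and Suclg2) and none was lower, in both fits. Of all genes tested 4.66% were higher by the same threshold for the group alone and 6.58% with the run.

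Other values differed between the groups beside these genes. Of 9 markers of villus enterocytes, 7 had a positive fold change (55.2% of all genes did). At an unadjusted p under 0.05, 4 were higher (Sis, Slc5a1, Fabp1 and Fabp2), as were 4.66% of all genes. Ada (-0.39) and Apoa4 (-0.15) lay below 0, and the smallest adjusted p was 0.322 (limma-voom). The summed level of the 9 was 15320 to 28540 CPM in sham and 17970 to 58280 CPM in pMCAO libraries, and 23030 to 58280 CPM in the first run against 15320 to 28540 CPM later. With the run Sis, a brush-border disaccharidase, reached an adjusted p of 0.0337 (limma-voom). All 6 goblet cell markers had a positive fold change (median 0.83 on the log2 scale), none with an unadjusted p under 0.05 for the group alone. Their smallest adjusted p was 0.671 in that fit (limma-voom). With the run 5 of 6 were positive (median 0.50), and 4 were higher at an unadjusted p under 0.05 (6.58% of all genes were). For the group alone, 7 of 7 crypt and proliferation, 4 of 4 tuft and 4 of 4 Paneth markers were also positive. So were 5 of 6 enteroendocrine, 5 of 8 immune and 3 of 7 epithelial markers. With the run 6, 0, 3, 1, 5 and 4 of them were positive, in the same order. Goblet markers summed to 3216 to 38000 CPM in sham and 5200 to 39620 CPM in pMCAO libraries. Mitochondrial ribosomal RNA averaged 35.6% ± 13.5 of the counts in sham libraries (SD, n = 7) and 24.5% ± 8.47 in pMCAO libraries (SD, n = 5). Total counts averaged 13442588 ± 7130286 in sham and 22183984 ± 8722524 in pMCAO libraries (SD). The part of these values in the differences of the 45 genes was not tested.

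Idh1 encodes cytosolic isocitrate dehydrogenase, which makes 2-oxoglutarate and NADPH outside the mitochondrion. Sham libraries held 26.4 (lowest), 45.6 (median) and 74.0 CPM (highest). The pMCAO libraries held 74.3, 67.7, 78.1, 99.2 and 90.5 CPM. All pMCAO libraries but replicate 2 lay above every sham library, and replicate 2 lay above 5 of the 7. Its log2 fold change was 0.75 ± 0.26 (limma-voom, unadjusted p = 0.0100, adjusted p = 0.445), and 0.63 ± 0.19 with the run (adjusted p = 0.176). Within runs it was 1.09, 0.48 and 0.36, and without the first run 0.47 (limma-voom, adjusted p = 0.671). Idh1 lies on chromosome 1 (65158616 to 65186500, minus strand).

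Malate dehydrogenase interconverts malate and oxaloacetate, in the cytosol (Mdh1) and in the mitochondrion (Mdh2). Mdh1 held 121 (lowest), 152 (median) and 226 CPM (highest) in sham-operated mice and 191, 196, 173, 273 and 293 CPM in pMCAO mice. All 5 pMCAO values lay above the sham median, and replicates 4 and 5 above every sham library. This was a log2 fold change of 0.50 ± 0.20 (limma-voom, unadjusted p = 0.0221, adjusted p = 0.519), and 0.33 ± 0.13 with the run (adjusted p = 0.279). Mdh1 (chromosome 11, 21556787 to 21572367, minus strand) overlaps an exon of Wdpcp on the opposite strand.

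Mdh2 (chromosome 5, 135778480 to 135790398, plus strand) held 201 (lowest), 211 (median) and 287 CPM (highest) in sham libraries. In pMCAO libraries it held 425, 223, 246, 251 and 287 CPM. Replicate 1, the pMCAO library of the first run, stood far above the rest. Fitted over all genes, the log2 fold change was 0.30 ± 0.19 (limma-voom, unadjusted p = 0.128, adjusted p = 0.667), and within runs it was 0.87, 0.04 and 0.07.

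Succinyl-CoA synthetase pairs a shared subunit, Suclg1, with a partner that sets whether GTP (Suclg2) or ATP (Sucla2) is made. Suclg1 held 9.24 (lowest), 20.8 (median) and 33.1 CPM (highest) in sham libraries and 22.4, 36.8, 28.8, 40.2 and 38.1 CPM in pMCAO libraries. All 5 pMCAO values lay above the sham median, and 3 above every sham library. On the log2 scale the fold change was 0.73 ± 0.30 (limma-voom, unadjusted p = 0.0261, adjusted p = 0.531), and 0.48 ± 0.19 with the run (adjusted p = 0.302). Its 3 lowest values were the 3 sham libraries of the first run, and without that run the fold change was 0.43. The gene lies on chromosome 6 (73248382 to 73276911, plus strand).

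Suclg2 (chromosome 6, 95473009 to 95718800, minus strand) held 4.14 (lowest), 9.75 (median) and 16.4 CPM (highest) in sham libraries. The pMCAO libraries held 10.9, 22.6, 19.8, 14.6 and 15.6 CPM. Replicates 2 and 3 lay above every sham library. Between the groups the log2 fold change was 0.69 ± 0.32 (limma-voom, unadjusted p = 0.0459, adjusted p = 0.587), and 0.59 ± 0.25 with the run (adjusted p = 0.332). A nearly identical pseudogene shares 38.7% of its longest coding transcript. Sucla2, the ATP-forming partner, had a log2 fold change of 0.01 ± 0.19.

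Idh3g encodes a regulatory subunit of the mitochondrial NAD-dependent isocitrate dehydrogenase. Sham libraries held 8.93 (lowest), 19.9 (median) and 34.1 CPM (highest), and pMCAO libraries held 31.8, 29.4, 25.9, 35.1 and 40.1 CPM. All 5 pMCAO values lay above the sham median, and replicates 4 and 5 above every sham library. Its log2 fold change was 0.54 ± 0.23 (limma-voom, unadjusted p = 0.0332, adjusted p = 0.564), and 0.59 ± 0.20 with the run (adjusted p = 0.231). It lies on the X chromosome (73778963 to 73786897, minus strand). The catalytic subunit Idh3a had a log2 fold change of 0.15 ± 0.41 and the other subunit, Idh3b, of 0.09 ± 0.24.

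The remaining genes of the cycle were Aco1 (an aconitase), Cs, Dlst, Fh1 (fumarase), Idh2 (mitochondrial NADP-dependent isocitrate dehydrogenase) and Ogdh. Their log2 fold changes ran from -0.04 for Cs to 0.46 for Idh2. None had an unadjusted p under 0.05 in either fit (limma-voom). Cs, the entry step of the cycle, held 427 ± 76.5 CPM (SD, n = 7) in sham-operated and 411 ± 55.5 CPM (SD, n = 5) in pMCAO mice.

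**Figure D4:**
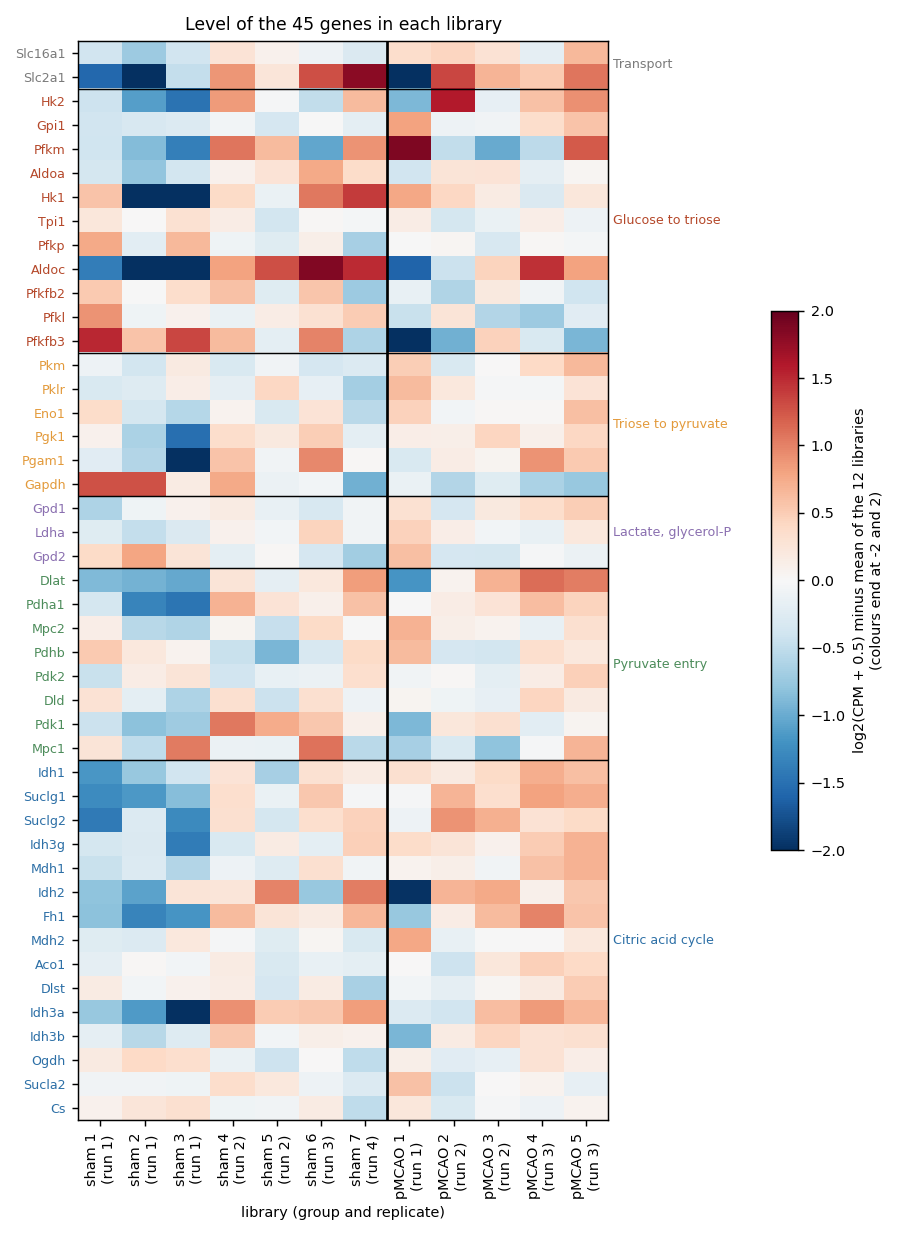
Heat map of log2(CPM + 0.5) of the 45 genes minus the mean of the 12 libraries, by role; columns are the 7 sham and 5 pMCAO libraries with their run. The 3 sham libraries of run 1 are low (blue) for Idh1, Suclg1, Suclg2, Fh1, Idh3a, Slc2a1, Dlat, Pdha1 and Aldoc, and pMCAO 1 shares the low values of Slc2a1, Dlat, Fh1 and Aldoc.

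Several genes separated the first run of libraries from the later ones. In 9 of the 45 genes (20%) its 4 libraries were all lower than the other 8, which occurred in 9.4% of all genes tested, and in 1 gene, Gpd2 (2.22%), they were all higher, which occurred in 5.46%. The 9 lower genes were Aldoa, Aldoc, Dlat, Fh1, Idh3b, Pdha1, Pdk1, Pgam1 and Slc2a1. Gpd2, mitochondrial glycerol-3-phosphate dehydrogenase, held 410 to 593 CPM in the first run and 212 to 349 CPM in the others. Aldoc held 0 to 0.478 CPM in the first run, at 0 counts in sham replicates 2 and 3, and 1.40 to 8.71 CPM in the others. The direction of the group difference was the same in all 3 runs that hold both groups for 18 of the 45 genes, which occurred in 30.1% of all genes tested.

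Ratios of paired enzymes within a library hardly depend on its scaling, except at low counts. There, as for Aldoc and Pfkm, the prior count added before taking logs also enters the ratio. Of 13 planned pairs 12 could be formed, the exception being Ldhb with Ldha. After adjustment over the 12 pairs no difference in ratio between the groups passed 0.05 (two-sided exact permutation test over 792 splits). The smallest p belonged to Pfkfb3 over Pfkfb2. Its log2 ratio ran from 0.66 to 1.61 in sham libraries, and was -1.82, 0.26, 0.89, 0.39 and 0.11 in pMCAO libraries. The groups overlap only through pMCAO replicate 3, which lies above 3 of the 7 sham libraries. The difference was -1.11 on the log2 scale (exact permutation test, unadjusted p = 0.00631, adjusted p = 0.0758), and it passed only without pMCAO replicate 3 (exact permutation, adjusted p = 0.0364). Adjusted for the run it was -1.28 (exact permutation within runs, unadjusted p = 0.0417, adjusted p = 0.25), and within runs it was -3.29, -0.09 and -0.80. The permutation test within runs has 72 splits and a smallest possible p of 0.0139. After adjustment over the 12 pairs, 1 pair alone could not pass 0.05 in it. Mpc2 over Mpc1 was the second pair with an unadjusted p under 0.05 in the test within runs, with a difference of 1.24 (exact permutation within runs, p = 0.0278, adjusted p = 0.25), but not in the test over all splits (exact permutation p = 0.124).

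**Figure D5:**
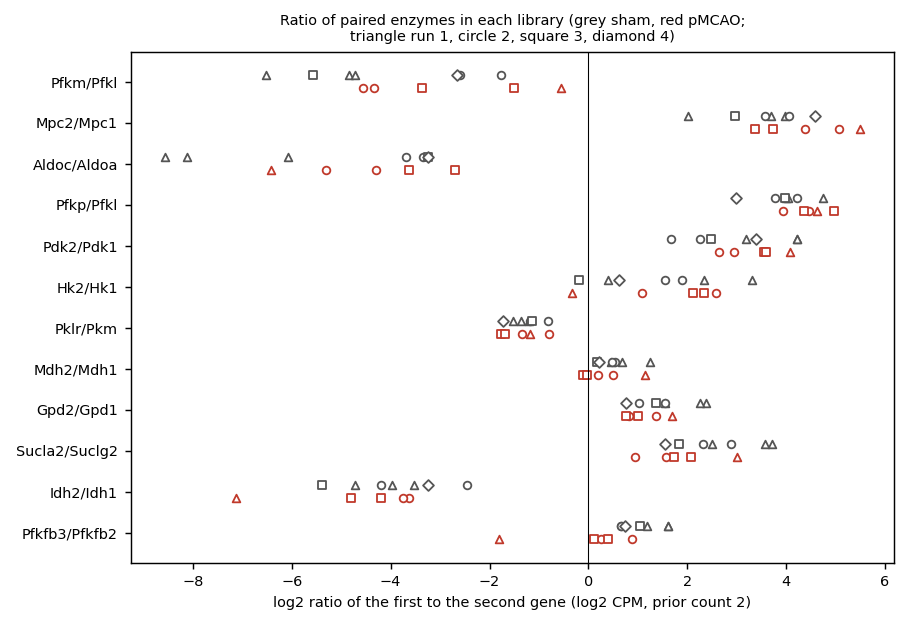
Log2 ratio of the first to the second gene of 12 enzyme pairs in each library, 7 sham (grey) and 5 pMCAO (red), with the marker shape giving the library run. For Pfkfb3 over Pfkfb2 the pMCAO library of run 1 stands at -1.82, and 4 of the 5 pMCAO libraries lie below every sham library.

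Of 35 further genes of the same pathways, such as succinate dehydrogenase subunits, pyruvate dehydrogenase phosphatases and malic enzymes, 32 were tested. By an unadjusted p under 0.05, 5 were higher and 2 lower in either fit (limma-voom), and none was called. Of all genes, 4.66% were higher and 3.77% lower for the group alone, and 6.58% and 6.17% with the run. For the group alone edgeR and DESeq2 each gave 7 of the 32 at an unadjusted p under 0.05, against 6.43% and 7.97% of all genes, and called none of the 32. Sdhb, the iron-sulphur subunit of succinate dehydrogenase, had a mean of 51.3 CPM in sham-operated and 83.1 CPM in post-stroke mice. On the log2 scale it differed by 0.71 ± 0.20 (limma-voom, unadjusted p = 0.00336, adjusted p = 0.347), and with the run 0.70 ± 0.18 (adjusted p = 0.101). Pdp2, a phosphatase that switches pyruvate dehydrogenase on, had means of 20.7 and 10.5 CPM and a log2 fold change of -0.88 ± 0.26 (limma-voom, adjusted p = 0.348). Me2, mitochondrial malic enzyme, which turns malate into pyruvate, had means of 65.8 and 116 CPM and a log2 fold change of 0.80 ± 0.27 (limma-voom, adjusted p = 0.427).

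Glycolytic genes are known targets of hypoxia-inducible factors, so 13 other genes of the hypoxia response were counted beside them, among them Hif1a and Epas1, which encode subunits of the factors themselves. For the group alone, 3 were higher (Epas1, Car9 and Ddit4) and 3 lower (P4ha1, Adm and Ankrd37) at an unadjusted p under 0.05, against 4.66% and 3.77% of all genes, and none was called by limma-voom. DESeq2, which called 0.484% of all genes, also called Ankrd37 for the group alone. With the run, 2 were higher and 3 lower, against 6.58% and 6.17% of all genes, and limma-voom called 1, Ankrd37, against 0.325% of all genes. The genes of this list were named after their values were seen. Ankrd37 averaged 30.4 CPM in sham-operated and 6.56 CPM in pMCAO mice, and with the run it differed by -2.28 ± 0.38 on the log2 scale (limma-voom, adjusted p = 0.0137).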

How the data were processed

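RNA sequencing of sorted EpCAM+ cells gave 1 library per mouse (7 sham, 5 pMCAO). Per the study's methods and the submitters' processing notes, the authors aligned reads with STAR to GRCm38 and counted them with featureCounts; whether strand was used is not given in the sources used here. The deposited count columns hold whole-number counts per gene and were the only values used. The deposited CPM columns are the same counts scaled to each library's total. The deposited log2 columns (fold change, mean expression) and p-value columns hold the authors' own comparison and were not used.

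The 46 genes and all lists were chosen with earlier results of these data known. Counts were filtered (filterByExpr, minimum count 10; 1393 genes removed), scaled by TMM factors and fitted over all genes on the group alone with limma-voom (R 4.3.3, limma 3.58.1, edgeR 4.0.16), since the labels give no collection day, with Benjamini-Hochberg adjustment over 14462 genes. A call needed an adjusted p up to 0.05 and a difference of at least 1 on the log2 scale. CPM values are TMM-scaled. Before TMM scaling, a count of 3 corresponds to 0.094 to 0.404 CPM, counting error only. After TMM scaling, the 3 counts of Hk1 in sham replicate 2 stood at 0.622 CPM. No 2 libraries agreed within sampling noise (chi-square per degree of freedom at least 20.1).

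Full values are given for the 14 genes with the smallest unadjusted p, plus genes called in either fit and members of enzyme pairs with an unadjusted p under 0.05, 15 in all. Enzyme ratios (log2 CPM, prior count 2) were tested by exact permutation. Gene positions and exon lengths came from GENCODE M21 (GRCm38). Near-identical copies are stretches of at least 100 bases at 98% identity or more (blastn 2.17.0). The limma-voom fits on the group alone and with the library run were tested on simulated counts, and the other fits were not. The alternatives were edgeR, DESeq2 1.42.0, limma-trend, RLE factors, sample quality weights, 2 other filters, removal of mitochondrial genes, the library run, libraries 62 and later, a replicate block and each library left out in turn.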

Additional observations from a re-analysis of the deposited data

Results flagged for a closer look

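In each group every gene was checked for a library that stood apart from the rest of its group, by Dixon's test on log2(CPM + 0.5). Of 90 sets of values, 4 were past the 95% limit, and chance alone gives about 1 in 20, or 4.5. All 4 were the lowest value among the pMCAO libraries, and 3 of them came from pMCAO replicate 1, the only pMCAO library of the first run. Idh2 was at 0.427 CPM in pMCAO replicate 1, against 3.44 to 5.70 CPM in the other 4. Idh3b was at 18.8 CPM in the same library, against 40.1 to 48.1 CPM. Slc2a1 was at 1.88 CPM there, against 18.3 to 32.6 CPM. For Slc2a1 and Idh3b the 3 sham libraries of the first run were also lower than every later library. Pfkp was at 125.6 CPM in pMCAO replicate 3, against 153 to 162 CPM. The part of the run in these values was not tested.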

How the results depend on the processing

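Counts of calls stayed at 0 for the 45 genes in every alternative but the replicate block, in which 2 were called. No paired design is known: the titles number the replicates, but the deviations of same-numbered samples correlated over 0.1 in only 2 of 5 pairs (0.40, -0.24, -0.16, 0.16 and 0.08), and 1 of the 5 pMCAO samples correlated best with the sham sample of its own number. With the replicate block Pfkfb3 (-1.49, adjusted p = 0.0378) and Gapdh (-1.21, adjusted p = 0.0326) were called and Idh1 reached an adjusted p of 0.0250 (limma-voom), while 243 genes (1.68%) were called in all. For the enzyme ratios the replicate block gave 0 pairs. Its exact permutation over 5 same-numbered pairs has too few splits for any enzyme ratio to pass, so this 0 decides nothing.

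At an unadjusted p under 0.05, lower genes numbered 5 with the library run in limma-voom (6.17% of all genes were lower) and 4 with the run in DESeq2 (5.7%). From libraries 62 and later 1 was lower (3.59%) and 0 were higher (3.99%). With each library left out in turn, higher genes ranged from 2 (without pMCAO replicate 5, 3.57% of all genes) to 9 (without pMCAO replicate 1, 8.36%). Lower genes ranged from 1 to 3, and over all genes from 2.32% to 5.74%. In all, 4 were higher without sham replicate 1 (3.35%) or pMCAO replicate 4 (3.67%), and 5 without sham replicate 2 (3.51%) or 6 (5.38%). Only Pfkfb3 was lower without sham replicate 1 (2.77%) or pMCAO replicates 3 (3.42%) or 4 (2.58%). Genes whose groups did not overlap ranged from 0 to 2 with a library left out (Gpd1 and Pfkl without pMCAO replicate 2). The share over all genes was not computed in those settings, so these counts have no background to be read against. Enzyme pairs past the threshold ranged from 0 to 1, Pfkfb3 over Pfkfb2 without pMCAO replicate 3 (exact permutation, adjusted p = 0.0364). Of the hypoxia genes 1, Ankrd37, was called in DESeq2, in the fits with the run by limma-voom, edgeR and DESeq2, and with the replicate block; those settings were applied to that list after the data were seen.

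The 15 genes with full values kept their direction in all 375 recomputed values, and 3 of those values crossed an adjusted p of 0.05, all with the replicate block. The median log2 fold change of the 45 genes, 0.19, ran from 0.11 without pMCAO replicate 5 to 0.31 without sham replicate 6, and was 0.12 with the library run, 0.32 with the replicate block and 0.35 with limma-trend. Of the genes, 5 average under 5 CPM and 3 have a library at 0 counts, which limits what can be said of Pfkm, Aldoc, Pgam1, Mpc1 and Idh2.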
